A study of Mus musculus with 3 samples.

Results

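Mouse embryonic fibroblasts (MEF) gave 30347 single-base positions on chromosome X at which LSD1 chromatin was read with both the B6 base and a variant base. A position belonged to this set when the MEF list held 2 or more reads of each base and no more than 20 reads of both together. The set made up 7.37% of the 411944 single-base positions of that list. Among the 65216 positions with 4 to 20 reads, which had enough reads to qualify, 30347 (46.5%, exact 95% interval 46.1% to 46.9%) were two-allele sites. The sites were chosen by their MEF reads, so their MEF values are given as a description and without a test.

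The study read chromatin bound by LSD1 (Kdm1a), pulled down with an LSD1 antibody, in 3 mouse samples with 1 library each. MidK were reprogramming cells at day 20 that carried the vector SeVdp(fKOSMaB) and received 30 nM Shield1, a small molecule that protects proteins with a destabilising tag from breakdown. LowK carried the same vector at day 20 without Shield1, and MEF were fibroblasts at day 0. The labels name neither the mouse strain behind the variant base, nor the sex of the embryos, nor how many cultures were used. Groups of 1 library have no replicate check, intervals cover counting error only, and neighbouring sites on 1 read are counted separately, so intervals are too narrow. The lists held 119257 single-base sites with 203350 reads in MidK, 186841 with 295240 in LowK and 411944 with 883058 in MEF, a mean of 1.71, 1.58 and 2.14 reads per site.

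LSD1 removes methyl groups from histone H3 and acts in corepressor complexes at promoters and enhancers. In female mammalian cells X inactivation leaves a single X chromosome active, some genes escape it, and the silent X is reactivated when mouse cells become pluripotent. A site read on both alleles shows that DNA with each base was in the pulled-down material. No control library or peak call was used here, so DNA bound by LSD1 was not separated from background DNA in the pulled-down material. In a bulk library, both alleles bound in every cell and a different allele bound in different cells also cannot be told apart. Reads from near-identical copies elsewhere in the genome, on this or another chromosome, can also place a second base at a position. Their part in the values below was not tested.

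No genome sequence was used here beyond RefSeq promoter windows of GRCm38.p6, the assembly called mm10, which run from 250 bases before to 50 after a gene's start. At 1028 of 1028 listed MEF positions in these windows, the B6 base of the list was the base of the assembly. Of 1220 windows, 74 held a two-allele site, 57 of them 1 site and 11 of them 2 sites. The 6 windows with 3 or more are shown because they place both bases in the sequence that the reads cover. Capitals mark the two-allele sites, with the B6 base printed, on the strand of the gene:
Cldn34c1: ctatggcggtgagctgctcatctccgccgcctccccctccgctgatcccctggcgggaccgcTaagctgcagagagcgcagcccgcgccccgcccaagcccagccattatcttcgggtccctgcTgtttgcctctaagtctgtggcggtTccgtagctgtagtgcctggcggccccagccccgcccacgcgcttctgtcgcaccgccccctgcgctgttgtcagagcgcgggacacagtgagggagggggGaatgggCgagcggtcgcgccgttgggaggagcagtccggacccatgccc
4930402K13Rik: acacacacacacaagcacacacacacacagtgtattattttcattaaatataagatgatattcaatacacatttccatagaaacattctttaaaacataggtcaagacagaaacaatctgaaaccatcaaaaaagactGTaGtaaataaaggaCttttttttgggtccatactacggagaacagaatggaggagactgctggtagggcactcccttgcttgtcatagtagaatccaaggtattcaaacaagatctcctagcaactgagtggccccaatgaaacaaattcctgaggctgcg
Arhgap4: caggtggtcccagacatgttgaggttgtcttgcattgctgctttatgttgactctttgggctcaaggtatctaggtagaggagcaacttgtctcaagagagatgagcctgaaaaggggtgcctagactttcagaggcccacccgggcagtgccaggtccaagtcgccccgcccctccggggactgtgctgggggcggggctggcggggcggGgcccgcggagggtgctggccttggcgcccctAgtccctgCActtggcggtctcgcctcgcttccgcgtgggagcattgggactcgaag
Zfp280c: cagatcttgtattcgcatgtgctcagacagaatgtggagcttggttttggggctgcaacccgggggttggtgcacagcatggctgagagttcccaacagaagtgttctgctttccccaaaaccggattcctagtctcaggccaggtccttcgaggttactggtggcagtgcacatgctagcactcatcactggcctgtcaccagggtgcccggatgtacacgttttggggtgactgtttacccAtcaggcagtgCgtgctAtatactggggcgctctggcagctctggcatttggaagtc
Xlr: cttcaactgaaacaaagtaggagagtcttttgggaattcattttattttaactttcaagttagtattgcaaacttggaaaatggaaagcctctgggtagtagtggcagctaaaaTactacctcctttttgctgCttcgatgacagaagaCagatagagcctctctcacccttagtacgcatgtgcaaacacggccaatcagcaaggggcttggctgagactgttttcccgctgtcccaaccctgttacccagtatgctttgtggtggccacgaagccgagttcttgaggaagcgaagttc
Vegfd: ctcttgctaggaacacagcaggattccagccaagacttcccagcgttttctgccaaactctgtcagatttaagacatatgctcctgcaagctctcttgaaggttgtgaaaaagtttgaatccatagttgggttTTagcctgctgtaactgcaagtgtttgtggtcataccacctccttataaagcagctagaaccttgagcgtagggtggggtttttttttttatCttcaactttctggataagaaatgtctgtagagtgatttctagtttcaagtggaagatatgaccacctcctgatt

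Cldn34c1, a claudin-like gene of a multi-copy family, had the most sites, 5 in chrX:123103273-123103572 on the plus strand. Positions are counted from 1 at the 5′ end of the printed window, with the B6 base first and the variant base last. At T150A MidK had 7 B6 and 2 variant reads, LowK 12 and 5, and MEF 7 and 3. At C258A, a site within a CG dinucleotide, MidK had 3 B6 and 3 variant reads, LowK 5 and 4, and MEF 3 and 2. At T125C MidK had 2 and 4, LowK 1 and 3, and MEF 4 and 3. These 3 sites were read on both alleles in all 3 libraries, with B6 in the majority at T150A in each. T63C (4 B6 and 3 variant reads in MEF) and G251A (3 and 2) were listed in MEF alone.

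The other 5 windows held 17 two-allele sites, of which 1 was listed in MidK and 1 in LowK. Arhgap4 encodes a GTPase-activating protein, and its window, chrX:73911249-73911548 on the minus strand, had 2 B6 and 3 variant reads at each of A253G, C252T, A244G and G212A in MEF. LowK listed G212A with 2 and 2 reads. The gene 4930402K13Rik (chrX:9104312-9104611, plus strand) had 3 B6 and 4 variant reads at G142A in MEF and 1 variant read there in MidK. Zfp280c, a zinc finger gene (chrX:48594570-48594869, minus strand), Xlr, a lymphocyte-regulated gene (chrX:53797657-53797956, minus strand), and Vegfd, a growth factor gene of blood and lymph vessels (chrX:164373272-164373571, plus strand), each had 3 sites. At C255T of Zfp280c, a CG site, MEF had 2 B6 and 6 variant reads.

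Promoter windows held 0.320% of the two-allele sites (0.259% to 0.390%) and 0.470% of the other sites with 4 to 20 reads (0.401% to 0.548%). Within the windows, 97 of the qualifying sites were two-allele and 164 were not, a two-allele share of 37.2% (31.3% to 43.3%) beside 46.5% on the whole chromosome. In 24 of the 97 the B6 base lay in a CG dinucleotide. The same count was not made for the other 164 sites, so this is a description only.

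Most sites had few reads. The 30347 sites held 81224 B6 and 79651 variant reads, with a minimum of 4 reads, a median of 5 and a maximum of 20. Sites with 4 reads made up 36.8%, those with 5 reads 29.6% and those with 6 reads 17.1%, while 595 sites (1.96%) had 10 or more. B6 reads were in the majority at 8858 sites and variant reads at 8197, and 13292 were tied. Just inside the rule, 11160 sites had 2 reads of each base, and just outside it 24612 had 1 B6 and 2 variant reads. Of sites with 2 or more reads of each base, 26 had 18 to 20 reads, 17 had 21 to 25, and 63 in all lay above 20 with up to 232 reads. The other sites with 4 to 20 reads comprised 19795 with no B6 read, 15028 with 1 B6 read and 46 with 1 variant read among several B6 reads.

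**Figure D1:**
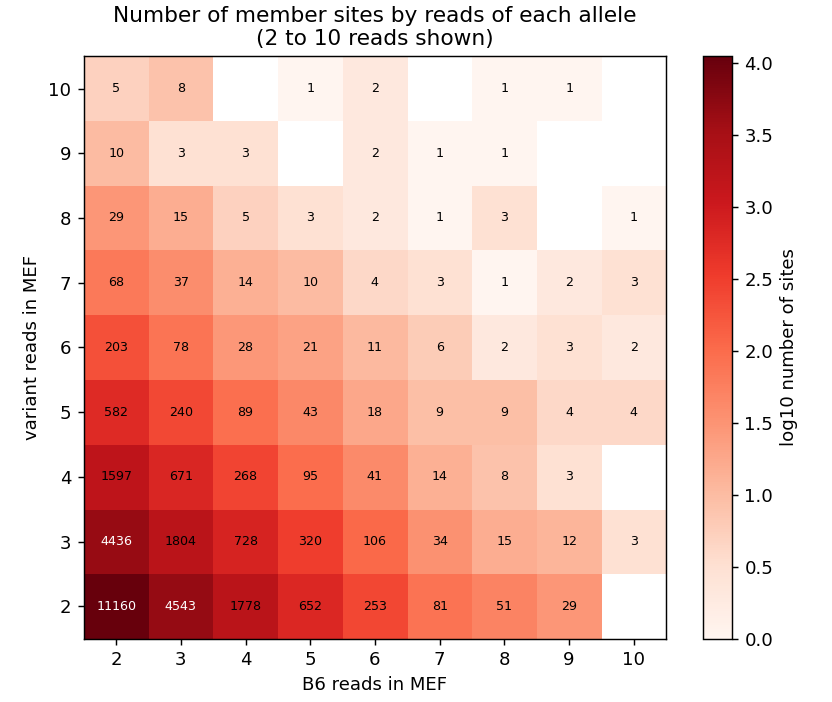
Number of two-allele sites in MEF by B6 reads (x axis) and variant reads (y axis), for 2 to 10 reads of each; color gives the log10 of the number. The cell with 2 reads of each holds 11160 sites, with 4543 sites at 3 B6 and 2 variant reads and 4436 at 2 B6 and 3 variant reads. At 6 and 2 reads the B6 side holds more, with 253 sites at 6 B6 and 2 variant reads and 203 at 2 B6 and 6 variant reads. The B6 side still holds more at 9 and 2 reads, with 29 sites against 10. At 10 and 2 reads it drops to 0 sites, against 5 at 2 B6 and 10 variant reads. The reason for this drop was not tested.

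The sites lay along the whole chromosome, and their density followed that of the sites deep enough to qualify. Of 168 windows of 1 Mb, 163 held a two-allele site. In the 150 windows with at least 100 qualifying sites, the number of two-allele sites ran from 62 to 343 with a median of 195.5. Across these windows two-allele and qualifying sites had a Pearson r of 0.92, as a description, since the first are part of the second. Their ratio varied little: 140 of the 150 windows had 40% to 55% two-allele sites, with a median of 46.1%, 6 lay above and 4 below.

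The window with the most sites, 343 of 648 qualifying (52.9%, 49.0% to 56.8%), was X:8000001 to 9000000, which holds the Ssxb and Fthl17 families and the blood-cell actin regulator gene Was. X:12000001 to 13000000, with the corepressor gene Bcor and the Mediator subunit gene Med14, followed with 339 of 656 (51.7%). X:7000001 to 8000000 had 295 of 645 (45.7%) and holds Foxp3, the factor of regulatory T cells, and Tfe3. X:55000001 to 56000000 had 286 of 500 (57.2%) and holds Slxl1, of a spermatid-expressed family. X:99000001 to 100000000 had 285 of 578 (49.3%) and holds the ephrin gene Efnb1 and the ectodysplasin gene Eda.

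Among the 150 windows with at least 100 qualifying sites, the highest share, 71.6% (65.3% to 77.3%), came from 166 of 232 sites in X:31000001 to 32000000, which holds genes of the Btbd35f and Spin2 families. Two-allele sites there had a mean of 8.98 reads, against 5.30 over all two-allele sites. X:32000001 to 33000000, also with Btbd35f genes, had 62 of 104 (59.6%) and a mean of 8.24 reads. X:54000001 to 55000000, which holds 6 predicted genes, had 172 of 289 (59.5%) and a mean of 5.92 reads. X:104000001 to 105000000 had 242 of 400 (60.5%, 55.5% to 65.3%) at a mean of 5.20 reads, near the mean over all two-allele sites. Its genes include Uprt, Zdhhc15 and Nexmif. The part of multi-copy sequence in these shares was not tested.

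The lowest shares among these windows were 37.5% in X:145000001 to 146000000 (157 of 419 sites), which holds the angiomotin gene Amot, and 37.6% in X:165000001 to 166000000 (166 of 441), which holds the glycine receptor gene Glra2. X:69000001 to 70000000, with Aff2, had 39.1% (166 of 425), and X:131000001 to 132000000, with no protein-coding or long noncoding gene, had 39.3% (168 of 427). X:45000001 to 46000000 had 40.3% (141 of 350). Windows with fewer than 100 qualifying sites numbered 16. At the distal end, X:170000001 to 171000000 had 43 qualifying sites, 41 of them two-allele (95.3%, 84.2% to 99.4%) with a mean of 10.2 reads, and holds Asmt, the gene of the last enzyme of melatonin synthesis.

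**Figure D2:**
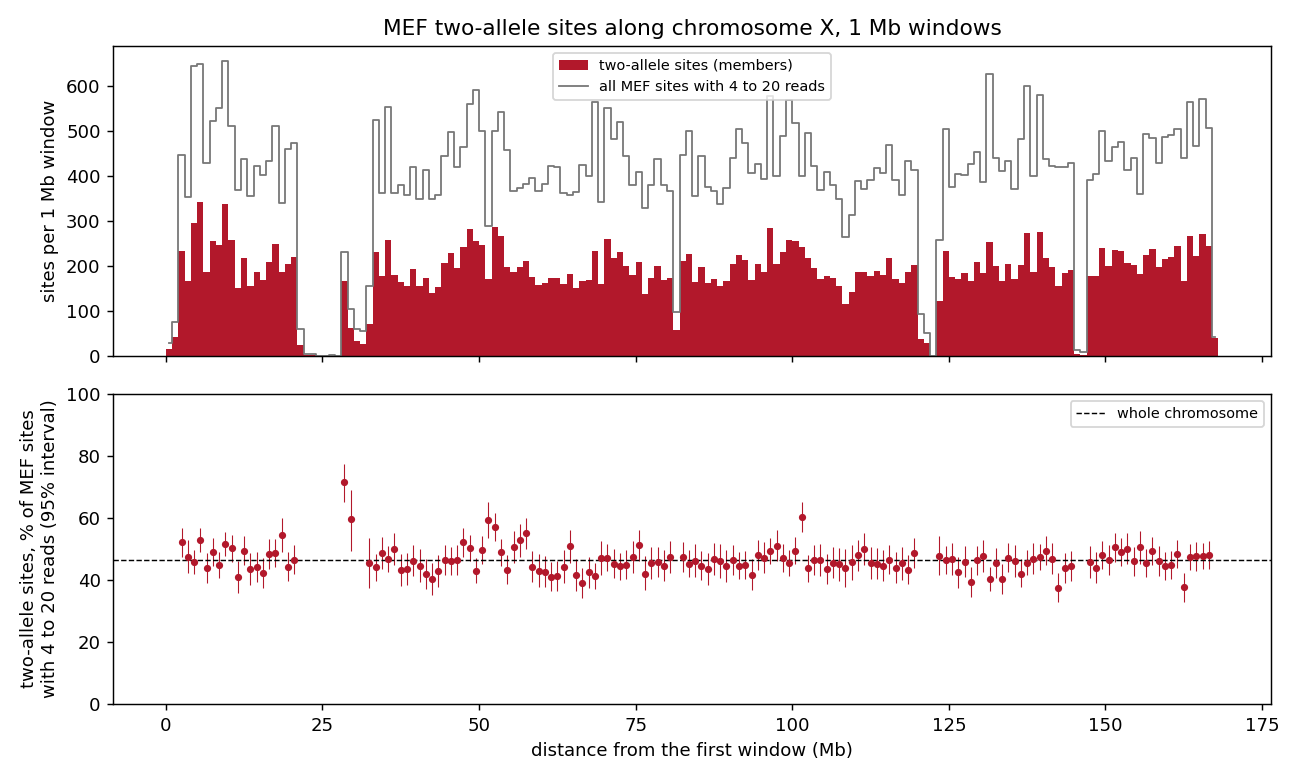
Top, two-allele sites (bars) and all MEF sites with 4 to 20 reads (line) per 1 Mb window against the distance from the first window; bottom, two-allele sites as a percent of those sites with exact 95% intervals, for the 150 windows with at least 100. Most windows lie near the dashed chromosome value of 46.5%, and the highest point is 71.6%.

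Sites came in runs, but closeness was not particular to two-allele sites. The median gap to the next site was 2092.5 bp among two-allele sites and 1636 bp among the other qualifying sites. Runs were not counted for the others. With gaps of at most 300 bp joined, the 30347 sites formed 20803 runs, 14535 of them a single site, 4329 a pair and 1939 of 3 or more, and 52.1% of sites had a neighbour in their run. Of 7472 neighbours within 100 bp, 60.0% had the same pair of B6 and variant counts, against 20.6% of 22874 neighbours farther apart. The longest run, X:5392724 to 5399334, held 94 sites in 6611 bp outside any gene of the table, with 39.4% variant reads in MEF; MidK listed 17 of its sites and LowK 21. A run of 18 sites lay in Rhox10, a reproductive homeobox gene (X:38069940 to 38070594), of which MidK listed 5 and LowK 6. Another 18 lay at X:8353518 to 8354630, with 0 listed in MidK and 2 in LowK.

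Transitions made up 60.2% of two-allele sites (59.7% to 60.8%) and 62.7% of the other qualifying sites (62.2% to 63.2%). Among them, changes from B6 T to variant C or from B6 A to variant G were 28.0% of two-allele sites (27.5% to 28.5%) and 30.1% of the others (29.6% to 30.6%). Changes with B6 C to variant T or B6 G to variant A were close, at 32.3% and 32.6%. Changes from C to A or G to T were more common among two-allele sites, at 11.9% (11.6% to 12.3%) against 10.5% (10.1% to 10.8%), and changes between C and G likewise, at 8.20% (7.89% to 8.51%) against 7.38% (7.11% to 7.66%). The two-allele sites also had lower call scores, with a median of 23.4 against 83.0. By the rule they hold more B6 reads than nearly all the others, and scores were not compared at equal reads of each base. Whether call errors take part in the substitution differences was not tested.

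Gene bodies held 34.4% of two-allele sites (33.9% to 34.9%) and 34.2% of the others (33.7% to 34.7%), with overlapping intervals. Of 1256 genes, 834 had at least 1 two-allele site. The exon structure was not used here, so sites in a gene body can be exonic or intronic. Dmd, the dystrophin gene (X:82814664 to 85205050), had 312 of 643 qualifying sites, or 13.1 per 100 kb. Frmpd4, a synaptic scaffold gene, had 255 of 531 (23.1 per 100 kb), Il1rapl2 217 of 466 and Il1rapl1, a synaptic adhesion gene, 212 of 474. Tenm1, a teneurin gene, had 140 of 316, Diaph2, a formin gene, 120 of 264, Fgf13 107 of 207, Dach2 106 of 197 and the protocadherin gene Pcdh11x 106 of 216. The gene 3830403N18Rik had 137 of 256, and at 43.6 per 100 kb it was the densest of these 10 genes.

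Of 43 genes with at least 100 qualifying sites, the two-allele share ran from 36.6% to 56.2% with a median of 47.3%. The highest was Plac1, a placental gene, with 59 of 105 (56.2%, 46.2% to 65.9%), followed by Phex, an endopeptidase gene of phosphate balance (56 of 101, 55.4%), Dach2 (53.8%), Pola1, the gene of the catalytic subunit of DNA polymerase alpha (67 of 125, 53.6%), and 3830403N18Rik (53.5%, 47.2% to 59.7%). The lowest were Aff2 (87 of 238, 36.6%, 30.4% to 43.0%), Gpc3, a glypican gene (70 of 183, 38.3%, 31.2% to 45.7%), Sytl5 (41 of 102, 40.2%), Dock11 (47 of 116, 40.5%) and the cation channel gene Trpc5 (58 of 138, 42.0%). The intervals of 2 genes lay above and of 2 below the chromosome value of 46.5%.

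All gene bodies together had 10441 of 22360 sites (46.7%, 46.0% to 47.4%). Genes known to escape X inactivation had 272 of 512 (53.1%, 48.7% to 57.5%), and all 11 held a site. The interval of this list lay above that of all gene bodies, but both describe the MEF reads that chose the sites. Both intervals also count neighbouring sites separately and are too narrow. For the gene lists, no two-allele share was computed with neighbouring sites left out, so no difference is concluded from these intervals. Mid1, a ubiquitin ligase gene, had 90 of 178, Shroom4 41 of 79, the long noncoding RNA gene Firre 27 of 61 and the histone demethylase gene Kdm6a 22 of 38. Of the smaller members, the RNA helicase gene Ddx3x, chosen after its values were seen, had 13 of 16. The X-inactivation centre had 102 of 217 (47.0%, 40.2% to 53.9%) over 10 genes found; Tsix, the antisense RNA of Xist, had 25 of 42 and the noncoding RNA gene Ftx 18 of 35. Xist, the RNA that silences the X, is named for that role and had 6 of 9. Since Tsix overlaps Xist, sites in both are the same sites. Genes subject to inactivation had 294 of 654 (45.0%), among them Cask with 75 of 154, Huwe1 with 39 of 62 and the cohesin subunit gene Stag2 with 37 of 83.

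Fibroblast and matrix genes had 327 of 738 (44.3%, 40.7% to 48.0%), with the collagen genes Col4a6 at 87 of 163 and Col4a5 at 37 of 91, Gpc3 at 70 of 183 and Chrdl1, a BMP antagonist gene, at 35 of 57. Pluripotency and germline genes had 148 of 335 (44.2%), with Bcor at 45 of 95, Klf8 at 43 of 82, the meiosis gene Tex11 at 30 of 69 and the zinc finger gene Zfx at 19 of 50, while 5 of 15 had no two-allele site. Neural adhesion and synapse genes had 1751 of 3780 (46.3%), and immune and blood genes 76 of 175 (43.4%), with Cybb at 15 of 28, Il13ra1 at 15 of 26, the receptor gene Tlr7 at 10 of 21 and the kinase gene Btk at 10 of 22. Of 121 genes of multi-copy families, 46 held a site, and together they had 325 of 645 (50.4%, 46.5% to 54.3%), with Mageb18 at 81 of 175 and Rhox10 at 21 of 32.

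**Figure D3:**
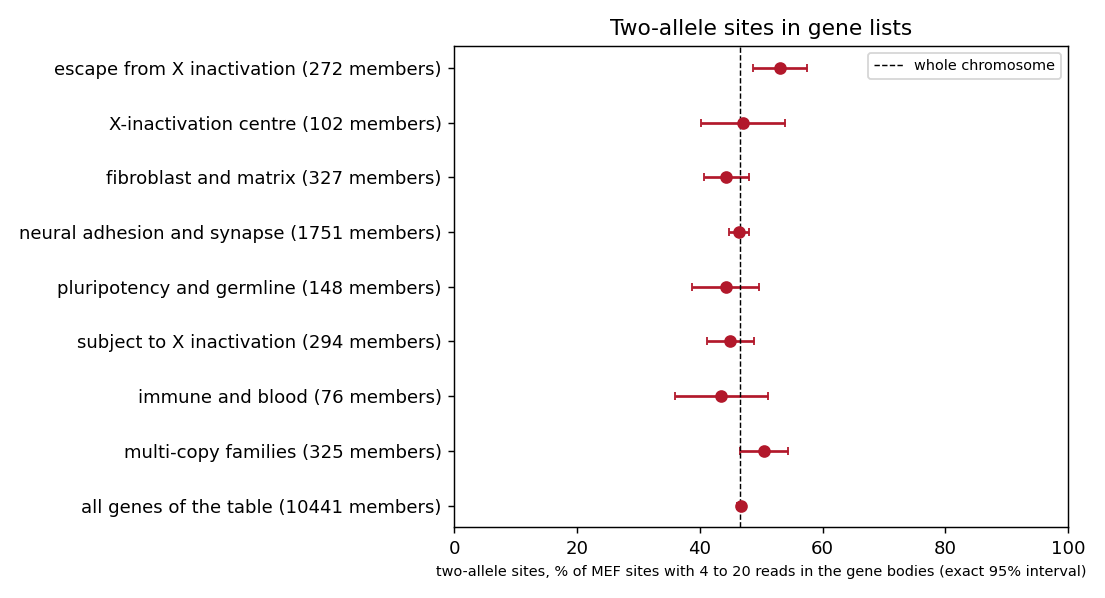
Two-allele sites as a percent of MEF sites with 4 to 20 reads in the gene bodies of each list, with exact 95% intervals; the dashed line is the chromosome value of 46.5%. The escape list lies highest at 53.1%, and the immune and blood list lowest at 43.4%.

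The reads of MidK and LowK at the same position and variant base were not used to choose the sites. MidK listed 1623 of the 30347 two-allele sites (5.35%, 5.10% to 5.61%) and 5.69% of the other qualifying sites (5.45% to 5.94%), beside 5.53% of all 65216. LowK listed 2968 two-allele sites (9.78%, 9.45% to 10.1%) and 11.4% of the others (11.1% to 11.7%), beside 10.7% of all. A site is listed only where the variant base was read, so these are shares of sites with a variant read. In LowK the two-allele sites lay lower at equal MEF depth too, at 8.33% (7.83% to 8.86%) against 10.9% (10.5% to 11.3%) for 4 MEF reads, 10.0% (9.43% to 10.7%) against 12.2% (11.5% to 12.9%) for 5 and 11.9% (11.0% to 12.9%) against 15.7% (14% to 17.7%) for 7 to 20. For 6 MEF reads, 10.3% and 10.9%, the intervals overlapped. In MidK they were apart for 6 MEF reads alone, at 5.41% (4.81% to 6.06%) against 7.32% (6.39% to 8.34%). Equal MEF depth here means equal total reads. By the rule, two-allele sites hold fewer variant reads than nearly all other sites with the same total. Listing needs a variant read, and no comparison at equal variant reads was made, here or in the windows and gene lists below.

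Along the chromosome, the share of two-allele sites listed in MidK ran from 1.13% to 14.2% per 1 Mb window with a median of 5.11%, and in LowK from 2.44% to 21.8% with a median of 8.95%, over the 150 windows with at least 100 qualifying sites. The highest MidK window, X:5000001 to 6000000, had 33 of 233 sites listed and holds the run of 94 sites. The highest LowK window, X:73000001 to 74000000, had 57 of 261 (17.0% to 27.3%), with 59 of 291 other sites (20.3%); it holds Bgn, L1cam, Hcfc1 and the Xlr cluster. Two-allele sites were listed less than the others, with intervals apart, in 3 of 150 windows in LowK and in 0 in MidK. In LowK these were X:52000001 to 53000000 (19 of 255 against 54 of 337), X:105000001 to 106000000 (13 of 217 against 39 of 279) and X:137000001 to 138000000 (14 of 205 against 38 of 229).

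Two-allele and other sites were compared in 8 gene lists and 2 libraries, and the intervals were apart in 1 of these 16 pairs. In the bodies of neural adhesion and synapse genes, MidK listed 97 of 1751 two-allele sites (5.54%, 4.51% to 6.72%) and 59 of 2029 others (2.91%, 2.22% to 3.74%). Over all gene bodies MidK listed 5.44% of two-allele sites and 5.50% of others, so the two-allele value of the neural list lay near that of all genes and the value of its other sites lay below. With 1 site per 300 bp the values in the neural list were 6.18% (4.93% to 7.63%) and 3.13% (2.28% to 4.18%), with intervals still apart. In LowK the intervals overlapped, at 6.34% (5.24% to 7.58%) and 7.15% (6.06% to 8.36%). In the X-inactivation centre LowK listed 17 of 102 two-allele sites (16.7%, 10.0% to 25.3%) and 7 of 115 others (6.09%, 2.48% to 12.1%), with overlapping intervals. In the pluripotency and germline list MidK listed 10.1% (5.78% to 16.2%) of two-allele sites and 10.7% of others, and LowK 16.9% (11.2% to 23.9%) and 24.6%. In the other lists the intervals of two-allele and other sites overlapped in both libraries.

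Where MidK listed a two-allele site, 270 of 1623 (16.6%, 14.9% to 18.5%) had a B6 read there, against 12.7% (11.3% to 14.3%) of 1983 other sites, beside 14.5% of all. LowK had 380 of 2968 (12.8%, 11.6% to 14.1%) against 12% (11.0% to 13%) of 3979, beside 12.3% of all. Most listed sites had 1 read, which is then a variant read, and the listed two-allele sites were deeper in MidK, with a mean of 2.13 against 1.74 reads, and in LowK, with 1.93 against 1.77. The share with a B6 read differed with depth. At exactly 3 reads MidK had B6 at 70 of 101 two-allele sites (69.3%, 59.3% to 78.1%) and 56.5% of others (48.0% to 64.6%), beside 61.7% of all. At 3 reads LowK had B6 at 113 of 260 (43.5%, 37.3% to 49.7%) and 43.9% of others (38.6% to 49.2%), beside 43.7% of all.

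At 5 or more reads B6 was read at most sites of both kinds. In MidK it was read at 124 of 136 two-allele sites (91.2%, 85.1% to 95.4%) and at 92.1% of others (85.0% to 96.5%), beside 91.6% of all. In LowK it was read at 155 of 187 (82.9%, 76.7% to 88.0%) and at 82.2% of others (76.2% to 87.2%), beside 82.5% of all. Sites with no B6 read at all in MEF had a B6 read at 92.3% of 52 listed sites in MidK (81.5% to 97.9%) and at 82.1% of 117 listed sites in LowK (73.9% to 88.5%). For 2, 3, 4 and 5 or more reads, in neither library were the intervals of two-allele and other sites apart. In MidK the two-allele value was the higher at 2, 3 and 4 reads, and over all sites with 3 or more reads it was 83.4% (78.6% to 87.5%) against 73.7% (68.4% to 78.4%), with intervals apart. Those two-allele sites had a mean of 6.42 reads and the others 4.69, and the part of depth in this difference was not tested. In LowK the same values were 63.3% (59.2% to 67.2%) and 60.8% (57.2% to 64.3%).

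**Figure D4:**
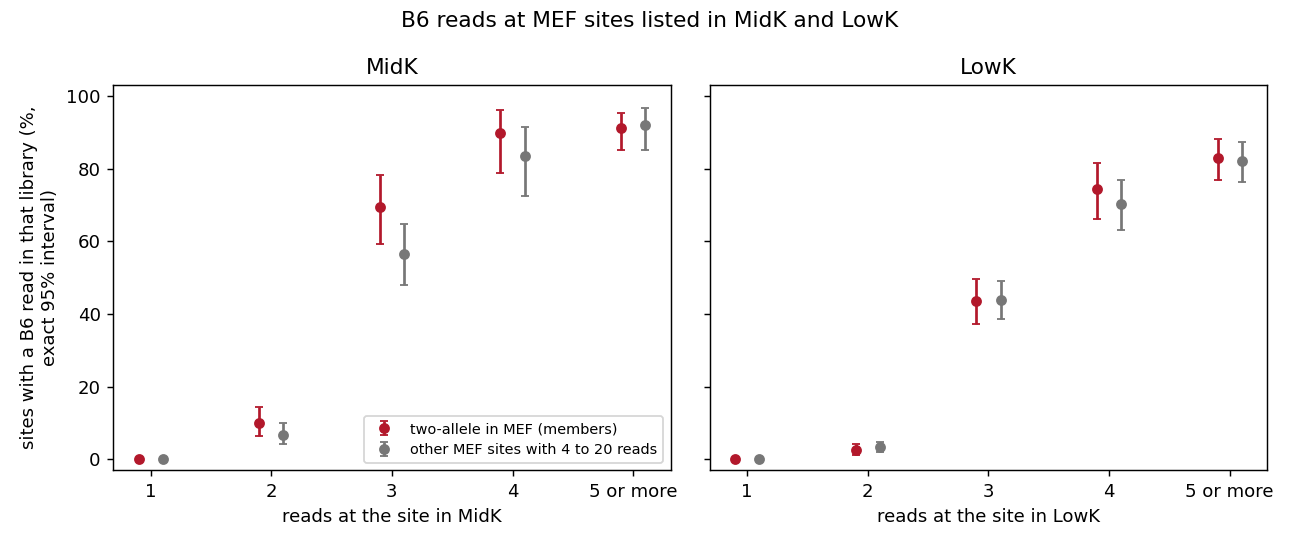
Percent of listed sites with a B6 read against the reads at the site, in MidK (left) and LowK (right), for two-allele MEF sites and for the other MEF sites with 4 to 20 reads, with exact 95% intervals. Both kinds of site are higher at greater depth, reaching 91.2% and 92.1% in MidK and 82.9% and 82.2% in LowK at 5 or more reads.

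Over all listed two-allele sites that were not tied, variant reads were in the majority at 96.3% of 1567 in MidK and 98.5% of 2892 in LowK (97.2% and 98.8% over all qualifying sites), but sites with 1 read, which is always a variant read, made up 1088 of these in MidK and 1862 in LowK. With ties left out and 5 or more reads, variant reads outnumbered B6 reads in MidK at 70 of 127 sites (55.1%, 46.0% to 63.9%). In LowK they did so at 128 of 171 sites (74.9%, 67.7% to 81.2%). Where each base had 2 or more reads in the library itself, the variant majority was at 39.4% in MidK (29.4% to 50%) and at 55.3% in LowK (44.7% to 65.6%), with overlapping intervals. Over all qualifying sites with 5 or more reads the values were 56.8% in MidK and 77.7% in LowK, close to those of the two-allele sites. At 5 or more reads MidK lay below LowK with intervals apart, also with 1 site per 300 bp, at 55% (44.7% to 65.0%) and 77.6% (69.3% to 84.6%). Without the windows from 31000001, 169000001 and 170000001 they were 59.0% (48.7% to 68.7%) and 77.8% (70.1% to 84.3%). The sites compared are mostly different ones: at the 38 with 5 or more reads in both libraries, variant reads had the majority at 26 in MidK and at 27 in LowK.

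The majority in MEF was set beside that in the other libraries. At 5 or more MidK reads, sites with a variant majority in MEF had a variant majority in MidK at 40 of 57 (70.2%, 56.6% to 81.6%), tied sites at 14 of 31 (45.2%, 27.3% to 64.0%) and sites with a B6 majority in MEF at 16 of 39 (41.0%, 25.6% to 57.9%). LowK had a variant majority at 65 of 77 sites with a variant majority in MEF (84.4%, 74.4% to 91.7%). Tied sites gave 40 of 52 (76.9%, 63.2% to 87.5%), and sites with a B6 majority gave 23 of 42 (54.8%, 38.7% to 70.2%). The first and last class were thus apart in LowK and overlapped in MidK. In LowK they overlapped with 1 site per 300 bp, at 83.9% (71.7% to 92.4%) and 64.0% (42.5% to 82.0%), and without the windows from 31000001, 169000001 and 170000001, at 85.0% (73.4% to 92.9%) and 61.8% (43.6% to 77.8%).

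Both libraries listed 328 two-allele sites, 20.2% of those listed in MidK and 11.1% of those in LowK. Of all two-allele sites, LowK listed 9.78% and MidK 5.35%. The same overlap at the other qualifying sites was not computed. With 5 or more reads in each there were 38 sites in 20 windows of 1 Mb, and 34 of them had a B6 read in both. Over these 38 the median variant share was 65.2% in MidK (22.2% to 100%), 68.3% in LowK (15.0% to 100%) and 55.4% in MEF (16.7% to 89.5%). With 1 site per 300 bp, 26 sites remained, with the variant base in the majority at 20 in MidK, 21 in LowK and 19 in MEF.

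**Figure D5:**
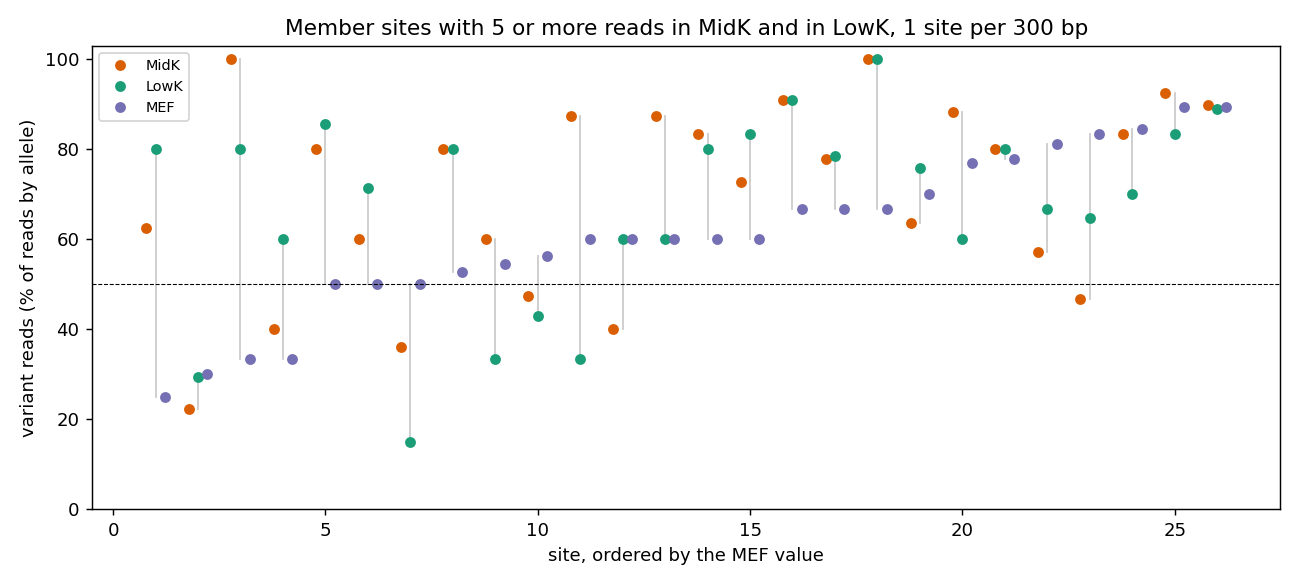
Variant reads as a percent of reads by allele in MidK, LowK and MEF at the 26 two-allele sites with 5 or more reads in both MidK and LowK, 1 site per 300 bp, ordered by the MEF value. The Cldn34c1 site, second from the left, is low in all 3 libraries, at 22.2% in MidK, 29.4% in LowK and 30.0% in MEF, while the leftmost site, in Ddx3x, is at 62.5% in MidK, 80.0% in LowK and 25% in MEF.

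The deepest of these sites differed in which base prevailed. Substitutions are written with the B6 base, the position on chromosome X and the variant base. C79861552G, 171411 bp from the nearest gene, had 62 variant of 69 reads in MidK, 32 of 36 in LowK and 17 of 19 in MEF, so the variant base prevailed in each, at 89.9%, 88.9% and 89.5%. C70317458T, 25611 bp from Ids, had 25 of 27 in MidK, 15 of 18 in LowK and 17 of 19 in MEF. Both sites had a variant share of 83.3% or more in every library.

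Near the distal end lay 4 of the deepest sites. C169995028T, 4230 bp from Mid1, had 53 variant of 60 reads in MidK (88.3%, 77.4% to 95.2%), 12 variant of 20 reads in LowK (60.0%, 36.1% to 80.9%), and 10 of 13 in MEF. T169994370A had 9 of 25 in MidK, 3 of 20 in LowK (15.0%) and 6 of 12 in MEF, and G169993582C had 9 of 19 in MidK, 3 of 7 in LowK and 9 of 16 in MEF. G170673169T in Asmt had 14 of 30 in MidK (46.7%, 28.3% to 65.7%), 11 of 17 in LowK and 15 of 18 in MEF (83.3%, 58.6% to 96.4%). At these 4 sites the intervals of the 3 libraries overlapped pairwise. Keeping the first site per 300 bp left out deeper neighbours here. G170673293C had 12 variant of 45 reads in MidK and 7 of 30 in LowK. A169994584G had 18 of 39 in MidK and 5 of 12 in LowK, and A169994462T 7 of 27 and 4 of 23. B6 prevailed at each of them in all 3 libraries. G170673171T, also left out, had a variant majority in all 3, with 16 of 31 in MidK and 10 of 16 in LowK.

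T31160773C, 41357 bp from Btbd35f29, had 7 variant of 11 reads in MidK, 22 of 29 in LowK and 14 of 20 in MEF. A94874185T, 127272 bp from Gm39526, had 8 of 14 in MidK, 6 of 9 in LowK and 13 of 16 in MEF. T123103422A, the Cldn34c1 promoter site given above as T150A, had 2 of 9 in MidK, 5 of 17 in LowK and 3 of 10 in MEF. B6 prevailed there in all 3 libraries.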

How the data were processed

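LSD1 ChIP reads were listed by allele in 1 library each of MidK, LowK and MEF. The submitters' processing notes name BWA and mm10, and variants came from bcftools mpileup, per the series' design text. The versions used and the handling of duplicates are not given in the sources available. Counts of total, B6 and variant reads per position and a score of call reliability were deposited by the authors, per the file headers; the score was used for its medians and in 1 alternative. In the MidK file the header of the score column carries another prefix than the other columns.

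Single-base rows at positions listed once were kept in each file; other entries made up 5.56% of MidK, 6.13% of LowK and 6.98% of MEF entries. Two-allele sites had 2 or more MEF reads per allele and no more than 20 in total. Sites in MidK and LowK were matched by position, reference and variant base. Genes (protein-coding, long noncoding and antisense) came from a RefSeq table of GRCm38.p6, whose 1256 chromosome X entries include all list genes except Cnbp2. Shares have exact 95% Clopper-Pearson intervals; with 1 library per group no test across samples was possible, so no p-value was computed. Windows named are the 5 with the most sites and the 5 highest and 5 lowest shares with at least 100 qualifying sites; genes are the 10 with the most sites, the 5 highest and 5 lowest shares, and 2 to 4 per list; sites are the 10 deepest in MidK and LowK with 1 site per 300 bp, and 1 of these sites and some list genes are not reported here. Sequence was planned for these sites too, but promoters with 3 or more sites, chosen after the data were seen, are shown instead. The members, lists and rules were chosen with earlier results of these data known. The antisense class was added to the gene table after Tsix was found missing from it. Functions were tested on simulated data. Python 3.11.15, pandas 2.3.3 and SciPy 1.17.1 were used.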

Additional observations from a re-analysis of the deposited data

Results flagged for a closer look

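The total depth, a column that none of the comparisons uses, exceeded the sum of B6 and variant reads at some two-allele sites. This was so at 6.90% of the listed sites in MidK (5.72% to 8.24%), at 5.66% in LowK (4.86% to 6.55%) and at 7.89% in MEF (7.58% to 8.19%). Reads of neither base made up 6.76% of the depth there in MidK, 4.40% in LowK and 1.95% in MEF. These shares were picked out because reads of neither base lie outside the data compared and are above the limit that a count of 0 allows.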

How the results depend on the processing

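Of 75 recomputed values of 9 results, 45 stayed within the interval of the reported value and 30 did not. With 3 or more reads per allele in MEF, the two-allele share of qualifying sites was 33.3%, the share listed in MidK was 6.6%, the share listed in LowK was 12%, the share with a B6 read in MidK was 27.4%, the share with a B6 read in LowK was 18.8%, the MidK variant majority was 92.5%, the LowK variant majority was 96.3% and the share in gene bodies was 33.3%. With at most 10 reads, the share with a B6 read in MidK was 14.6%, the share with a B6 read in LowK was 11.6%, the MidK variant majority was 97.3% and the LowK variant majority was 99%. With no maximum, the share with a B6 read in MidK was 18.8%, the MidK variant majority was 95.2% and the LowK variant majority was 97.8%. With 1 site per 300 bp, the two-allele share of qualifying sites was 47.1%, the LowK variant majority was 99.2% and the share in gene bodies was 35.1%. With a reliability of at least 20, the two-allele share of qualifying sites was 41.7%, the share listed in LowK was 10.3%, the share with a B6 read in MidK was 14.2%, the MidK variant majority was 97.5%, the share in gene bodies was 35.1% and the share of transitions was 61.2%. With 5 or more reads in the library read, the share with a B6 read in MidK was 91.2%, the share with a B6 read in LowK was 82.9%, the MidK variant majority was 55.1% and the LowK variant majority was 74.9%. With 2 or more reads per allele in that library, the MidK variant majority was 39.4% and the LowK variant majority was 55.3%. Matching by position alone, leaving out the window with the most sites and, as chosen after seeing the data, leaving out the longest run moved none of the values they were applied to outside these intervals. The values within gene lists and by MEF majority with 1 site per 300 bp, and those without the windows of deep shared sites, were also chosen after seeing the data. No paired analysis was possible because each group has 1 sample. Depth sets the limit: 69.7% of MidK, 67.7% of LowK and 47.4% of MEF sites had a single read, and a site with B6 reads only is in none of the lists.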
